A study of Homo sapiens with 6 samples.

Results

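RNA levels of 44 splicing regulators were followed in K562 cells after knockdown of PCBP1. They were listed by family name, as the heterogeneous nuclear ribonucleoproteins (hnRNPs), the serine and arginine rich (SR) proteins, the polypyrimidine tract binding (PTB) proteins and related factors, and are 44 of the 62252 genes to which transcripts could be assigned. K562 is an established human erythroleukemia cell line. The cells carried lentiviral pLKO.1 short hairpin RNAs against luciferase (shCtrl) or PCBP1 (shPCBP1), and cells of both groups went through puromycin selection. There were 3 libraries of polyA RNA per group, each read with 150 cycles from both ends, and nothing in the labels says whether the 3 were separate cultures, so p-values measure the spread between these libraries, which may be technical. Each group rests on a single hairpin per the methods of the study, in a selected pool of cells.

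Splicing regulators bind pre-mRNA and decide which exons are joined. Many hnRNPs and PTB proteins hold exons back, whereas SR proteins mostly promote exon use. Many of these genes also regulate their own level through poison exons, short stretches that carry a premature stop codon. A transcript that includes a poison exon is degraded by nonsense-mediated decay (NMD), so that a cell can make much RNA from the gene and little protein. PCBP1, the targeted protein, belongs to the hnRNP class itself and binds C-rich RNA.

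The sequences below are those of 11 poison exons, of 20 in members that had at least 5 TPM, at least 1% inclusion and the premature stop inside the exon, and are shown because the use of each is compared later. Each runs 5′ to 3′ on the strand of the gene, from the start of the exon to the end of the stop codon, with the stop in capitals. Coordinates are GRCh38 and cover what is printed. TRA2B and SRSF3, SRSF4, SRSF6, SRSF7 and SRSF11 are SR or SR-like proteins, RBM39 is a relative of the splicing factor U2AF2, HNRNPLL is a relative of HNRNPL, and TIA1 and TIAL1 are related RNA binding proteins.
SRSF3, 456-base exon (chr6:36599821-36599854, plus strand): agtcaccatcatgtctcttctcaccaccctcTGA
SRSF4, 175-base exon (chr1:29166009-29166064, minus strand): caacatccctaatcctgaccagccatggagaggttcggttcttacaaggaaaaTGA
SRSF6, 268-base exon (chr20:43459153-43459304, plus strand): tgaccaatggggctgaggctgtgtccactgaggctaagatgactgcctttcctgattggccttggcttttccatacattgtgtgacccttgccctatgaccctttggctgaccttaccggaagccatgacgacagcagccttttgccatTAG
SRSF7, 449-base exon (chr2:38749319-38749346, minus strand): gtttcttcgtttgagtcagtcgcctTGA
SRSF11, 117-base exon (chr1:70231859-70231908, plus strand): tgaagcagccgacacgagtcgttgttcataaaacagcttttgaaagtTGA
TRA2B, 276-base exon (chr3:185931772-185931852, minus strand): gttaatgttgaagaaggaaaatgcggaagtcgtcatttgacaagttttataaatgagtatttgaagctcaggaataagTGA
RBM39, 73-base exon (chr20:35740526-35740597, minus strand): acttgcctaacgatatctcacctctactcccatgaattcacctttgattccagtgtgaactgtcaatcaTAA
RBM39, 72-base exon (chr20:35734215-35734257, minus strand): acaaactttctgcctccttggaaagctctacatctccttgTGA
HNRNPLL, 83-base exon (chr2:38577956-38578002, minus strand): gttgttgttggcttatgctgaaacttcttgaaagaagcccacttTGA
TIA1, 66-base exon (chr2:70225357-70225393, minus strand): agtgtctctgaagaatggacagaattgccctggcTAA
TIAL1, 376-base exon (chr10:119580810-119580846, minus strand): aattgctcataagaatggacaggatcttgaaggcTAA

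In SRSF3 and SRSF7 the stop comes within the first 34 and 28 bases of exons of 456 and 449 bases. The stretches printed for TIA1 and TIAL1 have the same 37-base length, and 25 of the 37 bases are the same in both, compared position by position.

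A second set of sequences shows 3 coding stretches whose use was higher in all shPCBP1 libraries and which are described in detail later. The part in capitals is used as coding sequence in some annotated transcripts of the gene and is left out of others, and 20 bases on either side are in lower case.
HNRNPL, 111-base intron that can be kept (capitals at chr19:38840377-38840487, minus strand): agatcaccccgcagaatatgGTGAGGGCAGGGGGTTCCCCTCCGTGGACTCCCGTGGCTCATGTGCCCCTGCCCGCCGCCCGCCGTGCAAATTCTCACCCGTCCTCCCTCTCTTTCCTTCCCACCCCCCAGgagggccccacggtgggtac
HNRNPC, 39-base extension of an exon (capitals at chr14:21230958-21230996, minus strand): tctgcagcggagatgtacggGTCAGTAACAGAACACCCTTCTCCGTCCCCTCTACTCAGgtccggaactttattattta
PTBP1, 78-base exon (capitals at chr19:805492-805569, plus strand): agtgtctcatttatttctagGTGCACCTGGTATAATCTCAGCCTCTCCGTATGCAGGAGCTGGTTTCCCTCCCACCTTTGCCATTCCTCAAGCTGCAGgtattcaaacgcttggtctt

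Of the bases in capitals, 45.9% are C in HNRNPL, 41.0% in HNRNPC and 34.6% in PTBP1. These 3 were picked, and no share over all genes is given. A 117-base stretch of HNRNPM, also higher in all shPCBP1 libraries, has 23.9% C. Among forms that were lower, HNRNPAB (141 bases) has 29.8%, HNRNPD (147 bases) 17.0%, HNRNPA1 (66 bases) 13.6% and HNRNPH3 (45 bases) 6.67%. A relation between C content and use was not tested. The lengths of the 3 printed stretches are multiples of 3, so that the reading frame is the same with and without them.

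Estimated counts ranged from 83033656 to 140522444 in the shCtrl libraries and from 67066747 to 85121124 in the shPCBP1 libraries. PCBP1 itself fell from 38925 ± 1454 normalized counts (SD, n = 3) in shCtrl to 7041 ± 362 (SD, n = 3) in shPCBP1, which is 18.1% of shCtrl. The erythroid markers GATA1, KLF1, TAL1, TFRC and the globins HBG1, HBG2, HBE1 and HBZ were expressed (GATA1 had 21326 normalized counts on average in shCtrl), and TAL1, TFRC and HBG1 were higher in shPCBP1, at 114%, 127% and 112% of shCtrl. Among markers of other cell types, CD3E, CD14, ALB and MS4A1 were at most at 0.394 TPM on average in either group and PECAM1 at 0.982 TPM. EPCAM and COL1A1 were expressed, at 37.4 and 5.84 TPM in shCtrl and 32.5 and 4.04 TPM in shPCBP1, and both were lower (DESeq2 adjusted p = 0.035 and 0.018). The part of these markers in the results below was not tested.

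At gene level the regulators were more often higher than lower in shPCBP1, and the differences were small. A gene passed at a Benjamini-Hochberg adjusted p under 0.05 in the DESeq2 Wald test. Of the 44 genes, 43 received an adjusted p and 23 passed it, with 22 higher and 1 lower. Over all 17095 genes tested, 31.2% passed, 17.7% as higher and 13.5% as lower. All 43 had at least 2000 normalized counts on average, and among the 7626 genes of that level 31.9% were higher and 15.6% lower. The median log2 fold change was 0.10 over the 43 regulators, 0.05 over genes of at least 2000 counts and 0.0019 over all genes tested. The libraries of the groups did not overlap for 22 regulators that were higher and 3 that were lower, against 23.7% and 20.5% of all genes tested. That share was not computed for genes of at least 2000 counts, the level of all 43 regulators, so these counts lack a matched background. No regulator met the stricter call of the study (a log2 fold change beyond 1 in either direction, with more than 10 normalized counts on average), which 1.37% of all genes met. The transcripts of the 44 genes together took 10314 ± 205 TPM (SD, n = 3) in shCtrl and 11118 ± 237 in shPCBP1, or 1.03% and 1.11% of the total. TPM measures the abundance of a transcript per unit of length, relative to all others in the library. In bulk RNA of this kind, fewer cells with a transcript and less of it per cell cannot be told apart.

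**Figure D1:**
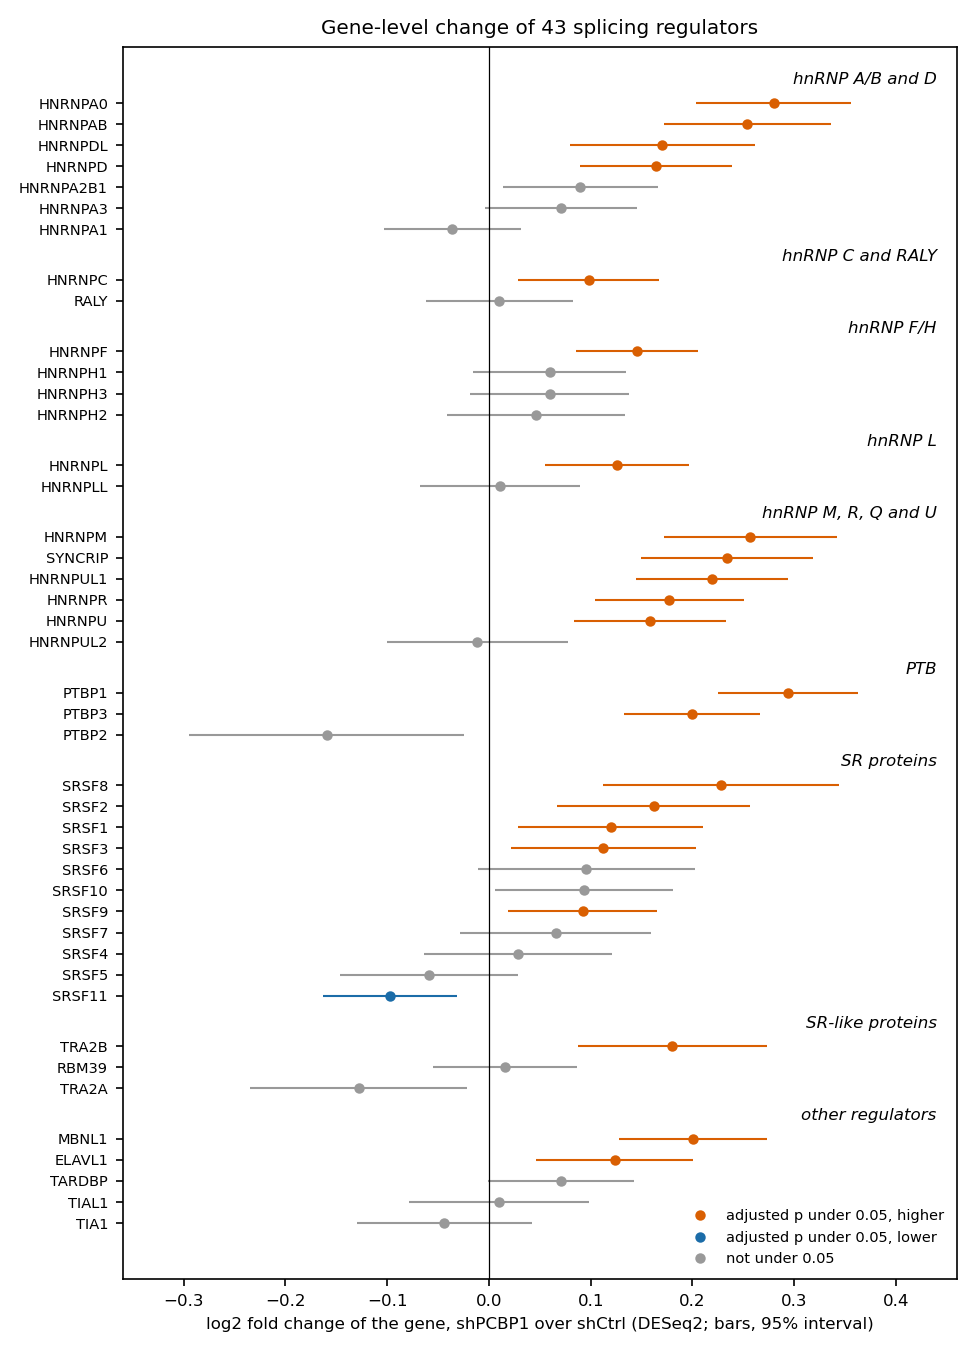
Log2 fold change (x axis) of each of the 43 regulators with an adjusted p (y axis, grouped by role), with bars for the 95% interval from DESeq2. Orange points passed as higher (22 genes) and the blue point, SRSF11, passed as lower, and the whole range runs from -0.16 (PTBP2) to 0.29 (PTBP1).

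The PTB proteins repress exons next to pyrimidine-rich sequence. PTBP1, the main form outside neurons, had 59212, 55737 and 58205 normalized counts in shCtrl and 73073, 69716 and 69441 in shPCBP1, in the order of the replicate numbers, as in all that follows. All shPCBP1 libraries lay above all shCtrl libraries, and PTBP1 rose by 22.6% (log2 fold change 0.29, 95% interval 0.22 to 0.36, DESeq2 adjusted p = 3.8e-15), with the lowest adjusted p of the 43. Its paralog PTBP3, which has overlapping targets, had 26938, 26702 and 25678 in shCtrl and 30751, 29825 and 30519 in shPCBP1. This was also higher in every shPCBP1 library, by 0.20 on the log2 scale (DESeq2 adjusted p = 9.2e-08). PTBP2, the neuronal paralog, had the lowest mean of the 43, with 2369, 2356 and 2241 normalized counts in shCtrl and 2047, 2185 and 2000 in shPCBP1. Its groups did not overlap, in the opposite direction to the other 2, but it missed the threshold (log2 fold change -0.16, 95% interval -0.29 to -0.02, DESeq2 adjusted p = 0.062).

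Of the 21 hnRNP genes, 12 were higher and none lower, with a median log2 fold change of 0.13. All 21 had at least 2000 normalized counts, where 31.9% of all genes were higher and 15.6% lower. The same shares apply to the counts by family below. The A/B and D proteins coat nascent RNA and shuttle between nucleus and cytoplasm, and 4 of their 7 genes were higher. HNRNPA0 had 20524, 19328 and 20574 normalized counts in shCtrl and 25034, 24659 and 23684 in shPCBP1, so that the groups lay apart (log2 fold change 0.28, DESeq2 adjusted p = 1.9e-11). HNRNPAB had 33644, 30359 and 32483 in shCtrl and 39605, 38398 and 37080 in shPCBP1 (0.25, adjusted p = 2.4e-08). HNRNPD, also named AUF1 and known for binding AU-rich mRNA, had 49487, 46850 and 47330 in shCtrl and 55287, 54653 and 51058 in shPCBP1 (0.16, adjusted p = 0.00014). In all 3 genes every shPCBP1 library was above every shCtrl library. HNRNPDL, a close relative of HNRNPD, was higher by 0.17 (DESeq2 adjusted p = 0.0015).

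HNRNPA1, the regulator with the highest TPM, and its relatives HNRNPA2B1 and HNRNPA3 did not pass. HNRNPA1 had between 173463 and 182794 normalized counts in shCtrl and between 166913 and 177939 in shPCBP1 (log2 fold change -0.04, 95% interval -0.10 to 0.03). HNRNPA1 has 74 annotated pseudogenes by name and reads may be split among them, so its value is uncertain, as is that of HNRNPA3, with 16. HNRNPA2B1 had a log2 fold change of 0.09 (95% interval 0.01 to 0.17, DESeq2 adjusted p = 0.064) and HNRNPA3 of 0.07 (-0.0042 to 0.15).

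Among the M, R, Q and U proteins, 5 of 6 were higher, with a median log2 fold change of 0.20. HNRNPM, which binds GU-rich RNA, had 47390, 44259 and 47693 normalized counts in shCtrl and 58714, 55426 and 52381 in shPCBP1 (0.26, DESeq2 adjusted p = 6.7e-08). SYNCRIP, also called hnRNP Q, had 34447, 30930 and 33806 in shCtrl and 40240, 38780 and 37622 in shPCBP1 (0.23, adjusted p = 8.5e-07). HNRNPR, its paralog, had 27339, 27037 and 27580 in shCtrl and 32011, 31207 and 29446 in shPCBP1 (0.18, adjusted p = 2.2e-05). In these 3 genes the groups did not overlap and shPCBP1 replicate 3 was the lowest of its group. HNRNPU, the scaffold attachment protein that binds RNA and chromatin, had 102332, 96729 and 100207 in shCtrl and 117266, 109166 and 107495 in shPCBP1 (0.16, adjusted p = 0.00025). HNRNPUL1, its relative, had 29440, 28748 and 28905 in shCtrl and 35408, 33701 and 32274 in shPCBP1 (0.22, adjusted p = 1.7e-07), with no overlap in either gene. HNRNPUL2 had a log2 fold change of -0.01 (95% interval -0.10 to 0.08), and shares its strand with the read-through gene HNRNPUL2-BSCL2.

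In the other hnRNP families 1 gene of each passed. HNRNPF, which binds G-tracts, had 47452, 47142 and 47403 normalized counts in shCtrl and 53508, 52226 and 51289 in shPCBP1, which did not overlap (0.15, DESeq2 adjusted p = 2.2e-05). Its relatives HNRNPH1, HNRNPH2 and HNRNPH3 had log2 fold changes of 0.06, 0.05 and 0.06 and none passed. HNRNPL, which binds CA repeats, was higher by 0.13 (DESeq2 adjusted p = 0.0026) and HNRNPC, which binds uridine tracts as a tetramer, by 0.10 (adjusted p = 0.021). Their relatives HNRNPLL (0.01) and RALY (0.01) did not pass.

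**Figure D2:**
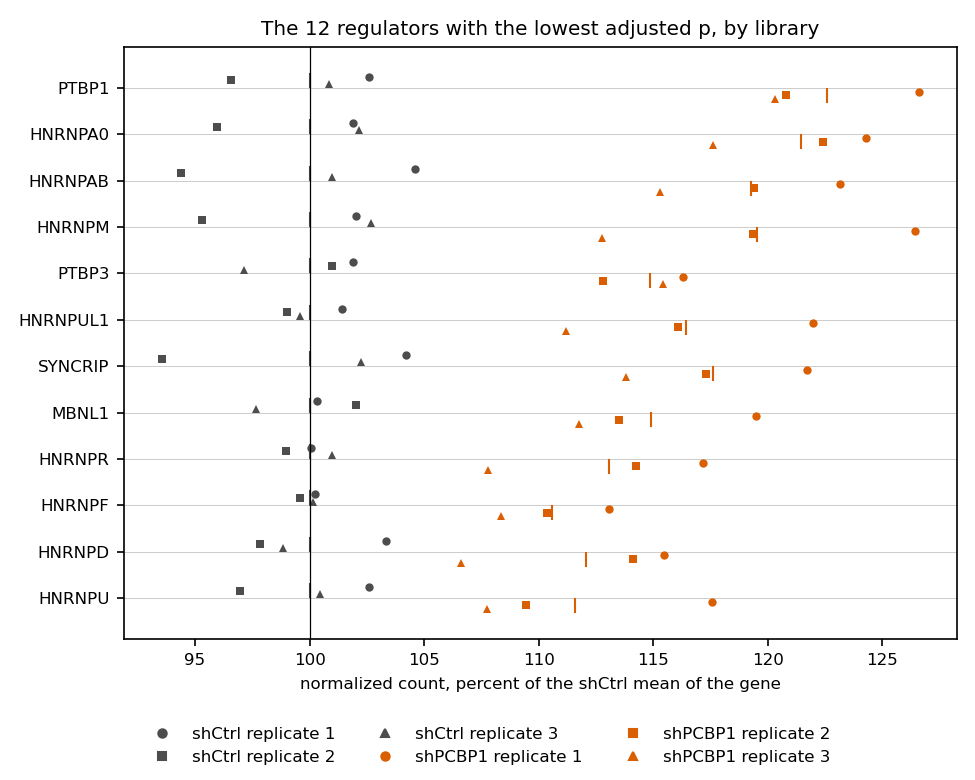
Normalized counts of the 12 regulators with the lowest adjusted p, as percent of the shCtrl mean of each gene (x axis, not starting at 0), 1 point per library and a vertical tick for each group mean. Every shPCBP1 point lies to the right of every shCtrl point of its gene, which is likely for genes picked by p. PTBP1 has the largest rise, 22.6%.

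The SR proteins define exons and are themselves built with poison exons. Among the 11 tested, 5 were higher and 1 lower, with a median log2 fold change of 0.09. Of all genes with at least 2000 normalized counts, as these 11 had, 31.9% were higher and 15.6% lower. SRSF8 had 8966, 7708 and 8936 normalized counts in shCtrl and 10522, 10038 and 9446 in shPCBP1 (0.23, DESeq2 adjusted p = 0.00078). SRSF2, the SC35 protein of nuclear speckles, had 35658, 31346 and 33968 in shCtrl and 40027, 36619 and 36318 in shPCBP1 (0.16, adjusted p = 0.0042). In both genes all shPCBP1 libraries were above all shCtrl libraries.

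SRSF1, also called SF2/ASF, had 42603, 37983 and 42586 normalized counts in shCtrl and 46851, 44047 and 42941 in shPCBP1 (0.12, DESeq2 adjusted p = 0.035). SRSF9, its relative, had 19853, 18876 and 19490 in shCtrl and 20643, 21275 and 20146 in shPCBP1 (0.09, adjusted p = 0.044). SRSF3, the smallest SR protein, had 40976, 37310 and 40027 in shCtrl and 45089, 42926 and 39906 in shPCBP1 (0.11, adjusted p = 0.048). The groups of SRSF1 and SRSF9 lay apart by a narrow margin, and those of SRSF3 overlapped through shPCBP1 replicate 3. SRSF11 had 27191, 26027 and 27261 in shCtrl and 25128, 25042 and 25065 in shPCBP1, and was the only regulator that passed as lower (-0.10, DESeq2 adjusted p = 0.015). With offsets for the length of the transcripts in use, its estimate turned to 0.053 and did not pass (adjusted p = 0.52).

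The other SR genes did not pass, and their groups overlapped. SRSF6 had 15116, 13848 and 16022 normalized counts in shCtrl and 17162, 15654 and 15269 in shPCBP1 (0.10, 95% interval -0.01 to 0.20). SRSF10, which acts as a repressor when dephosphorylated, had 18918, 17921 and 18535 in shCtrl and 20994, 19290 and 18779 in shPCBP1 (0.09, 0.0057 to 0.18). SRSF7 had 22224, 19798 and 21375 in shCtrl and 23178, 22225 and 20949 in shPCBP1 (0.07, -0.03 to 0.16). The intervals of SRSF6 and SRSF10 include the estimate for SRSF2, 0.16, and that of SRSF7 ends just short of it. SRSF4 had 15429, 13867 and 15153 in shCtrl and 15722, 15097 and 14533 in shPCBP1 (0.03, -0.06 to 0.12). SRSF5 had 17358, 16837 and 17259 in shCtrl and 17469, 16448 and 15474 in shPCBP1 (-0.06, -0.15 to 0.03). SRSF12 was at 0 in all shCtrl libraries and in shPCBP1 replicate 1 and had 2.37 and 16.6 normalized counts in shPCBP1 replicates 2 and 3, too few for an adjusted p.

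TRA2B, an SR-like activator of exons, was higher by 0.18 (95% interval 0.09 to 0.27, DESeq2 adjusted p = 0.00094). Its paralog TRA2A had 6913, 6394 and 6530 normalized counts in shCtrl and 6212, 6302 and 5638 in shPCBP1, with no overlap, in the other direction (-0.13, 95% interval -0.23 to -0.02, adjusted p = 0.058). RBM39 had a log2 fold change of 0.02. MBNL1, a zinc-finger regulator known from myotonic dystrophy, had 24958, 25390 and 24303 in shCtrl and 29730, 28243 and 27812 in shPCBP1, all higher (0.20, DESeq2 adjusted p = 8.7e-07). ELAVL1, the HuR protein that binds AU-rich RNA, was higher by 0.12 (adjusted p = 0.0081). TARDBP (0.07), TIA1 (-0.04) and TIAL1 (0.01) did not pass, and only TARDBP had groups that did not overlap.

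Across 13 other ways of fitting the data, 16 of the 23 calls held in each. The other 7 were lost at times. With edgeR's quasi-likelihood test ELAVL1, HNRNPC, SRSF1, SRSF3 and SRSF9 were not called (adjusted p = 0.059, 0.11, 0.13, 0.16 and 0.18). SRSF1, SRSF3 and SRSF9 were also lost with TMM factors (DESeq2 adjusted p = 0.057, 0.078 and 0.089) and without independent filtering (0.057, 0.078 and 0.072), SRSF9 with a replicate block (0.092), and HNRNPC, SRSF9 and SRSF11 with length offsets (0.33, 0.49 and 0.52). Without shPCBP1 replicate 1, ELAVL1, SRSF2, HNRNPC, SRSF1, SRSF3 and SRSF9 were no longer called (DESeq2 adjusted p = 0.062, 0.072, 0.11, 0.23, 0.30 and 0.083). Without shCtrl replicate 2, HNRNPC, SRSF1, SRSF3 and SRSF9 were lost (adjusted p = 0.076, 0.21, 0.24 and 0.12), and without shPCBP1 replicate 2 the same 4 genes and SRSF11 (0.13, 0.10, 0.19, 0.23 and 0.068). Without shCtrl replicate 3, SRSF3, SRSF9 and SRSF11 were lost (0.068, 0.066 and 0.058), and SRSF11 also without shCtrl replicate 1 (0.079). HNRNPA2B1 gained a call without shCtrl replicate 1 or shPCBP1 replicate 3 (0.025 and 0.0052), PTBP2 without shPCBP1 replicate 2 (0.041), SRSF10 without shPCBP1 replicate 3 (0.033), SRSF6 and TARDBP without shCtrl replicate 3 (0.039 and 0.043) and TRA2A without shCtrl replicate 2 (0.047). PTBP2 and TRA2A were also called with TMM factors (0.039 and 0.028), HNRNPA2B1 with a replicate block (0.032), and HNRNPA2B1, HNRNPH1, RBM39 and SRSF6 with length offsets (0.025, 0.041, 0.049 and 0.0045).

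The share of RNA in NMD transcripts was examined next, as the TPM of transcripts annotated as nonsense_mediated_decay in percent of these and protein_coding transcripts of the gene. Since NMD removes such RNA, this share is a steady-state level and not the rate at which the poison forms are made. Of the 34 regulators with such transcripts, 32 had enough counts for a test with limma on the log2 ratio of the 2 classes. None passed at an adjusted p under 0.05, against 0.0226% of 4421 genes, and 2 regulators and 490 genes had an unadjusted p under 0.05. The direction was up in 16 and down in 16, with a median log2 ratio difference of 0.03 against 0.05 over all genes tested. The groups did not overlap for 4 regulators that were higher and 2 that were lower, against 11.4% and 7.65% of all genes. The 95% interval of the log2 ratio difference had a median width of 0.93 over the 32 regulators. On simulated data of this size the test missed all moderate changes, so the absence of calls does not show that the shares were alike.

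Transcripts annotated as NMD forms took a large share in several regulators in both groups. These shares rest on the annotation, in which HNRNPA2B1 has 35 NMD and 7 coding transcripts, and whether the RNA is degraded was not tested. HNRNPA2B1 had shares of 60.0%, 56.2% and 62.1% in shCtrl, against 60.6%, 63.6% and 61.5% in shPCBP1. SRSF6 had 49.6%, 49.2% and 47.6% in shCtrl and 51.6%, 46.7% and 52.6% in shPCBP1. The share was above 20% in 10 of the 32 genes. TRA2B had 45.1%, 47.8% and 43.9% in shCtrl and 45.9%, 41.3% and 42.5% in shPCBP1, and its coding TPM was 61.7 ± 3.66 (SD, n = 3) in shCtrl and 77.6 ± 5.47 in shPCBP1, against NMD TPM of 51.6 ± 1.59 and 59.2 ± 5.19. In TRA2B, therefore, both classes had higher mean TPM in shPCBP1 while the share overlapped between groups. SRSF3 had 24.4%, 25.9% and 26.0% in shCtrl and 25.7%, 24.6% and 24.5% in shPCBP1 (log2 ratio difference -0.04, 95% interval -0.39 to 0.32). For SRSF1 the shares were 26.4%, 22.8% and 24.5% in shCtrl and 26.3%, 22.9% and 24.4% in shPCBP1 (-0.0027, 95% interval -0.41 to 0.41).

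The regulator with the lowest p was HNRNPUL1, with NMD shares of 17.1%, 13.2% and 15.7% in shCtrl, against 22.1%, 27.8% and 22.8% in shPCBP1. All shPCBP1 libraries were above all shCtrl libraries, and the log2 ratio difference was 0.81 (95% interval 0.29 to 1.33, limma adjusted p = 0.28). Its NMD transcripts had 17.7 ± 2.30 TPM (SD, n = 3) in shCtrl and 31.5 ± 4.08 in shPCBP1, whereas its coding transcripts had 97.2 ± 2.15 and 98.5 ± 6.07. HNRNPDL had shares of 5.98%, 5.90% and 6.34% in shCtrl, against 3.65%, 4.31% and 4.81% in shPCBP1 (-0.55, limma adjusted p = 0.34). TRA2A had 3.21%, 1.59% and 2.93% in shCtrl and 4.22%, 4.30% and 3.59% in shPCBP1 (0.68, adjusted p = 0.46). HNRNPL had 1.15%, 0.943% and 1.01% in shCtrl and 0.874%, 0.901% and 0.681% in shPCBP1 (-0.34, adjusted p = 0.55). SRSF10 had 2.68%, 3.21% and 3.71% in shCtrl and 4.20%, 3.80% and 4.15% in shPCBP1 (0.35, adjusted p = 0.56). In these 5 genes the groups did not overlap, but none of the differences passed over all genes tested.

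**Figure D3:**
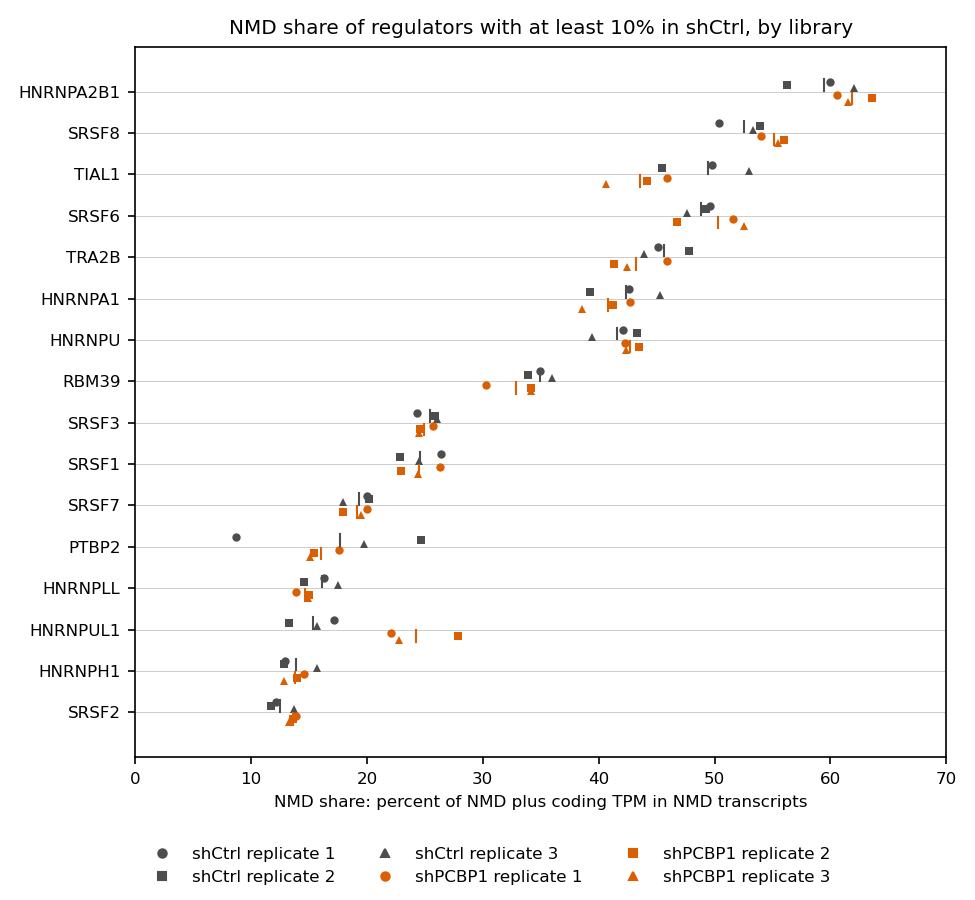
NMD share (x axis, percent of the TPM of NMD and coding transcripts) of the 16 regulators with a mean of at least 10% in shCtrl, 1 point per library and a vertical tick for each group mean. HNRNPUL1 is displaced to the right in all shPCBP1 libraries, and SRSF8 by a smaller margin, while the other genes overlap between groups.

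Retained-intron transcripts, which are annotated without a coding sequence, gave a similar count of 0. Of 36 regulators with such transcripts 33 were tested, none passed with limma and 6 had an unadjusted p under 0.05, against 0.146% passing of 6178 genes tested and 947 with an unadjusted p under 0.05. This test, too, missed most moderate changes on simulated data. The share was up in 14 and down in 19, with a median log2 ratio difference of -0.04 against -0.11 over all genes. The groups did not overlap for 3 that were higher and 5 that were lower, against 7.51% and 15.1% of all genes. RALY had retained-intron shares of 0.519%, 0.507% and 0.574% in shCtrl, against 1.05%, 0.944% and 1.16% in shPCBP1 (log2 ratio difference 0.89, 95% interval 0.57 to 1.21, limma adjusted p = 0.083). The groups lay apart at a low level, at most 1.16% in any library. SRSF9 had 6.21%, 5.67% and 5.92% in shCtrl and 4.51%, 4.19% and 4.35% in shPCBP1 (-0.47, adjusted p = 0.16). TARDBP, which binds UG repeats and regulates its own mRNA, had 0.717%, 0.791% and 0.825% in shCtrl and 1.11%, 1.30% and 1.62% in shPCBP1 (0.73, adjusted p = 0.16). In both genes the groups did not overlap, in opposite directions. PTBP1 had 9.91%, 10.7% and 9.09% in shCtrl and 8.17%, 7.57% and 8.08% in shPCBP1 (-0.35, adjusted p = 0.27). SRSF1 had 11.7%, 11.4% and 7.89% in shCtrl and 16.6%, 12.5% and 14.4% in shPCBP1 (0.57, adjusted p = 0.29). These too did not overlap, and shCtrl replicate 3 of SRSF1 lay apart from the other two. In TIAL1 retained-intron forms took 63.0%, 63.5% and 65.2% of the TPM of these and coding forms in shCtrl and 59.1%, 58.1% and 62.3% in shPCBP1, lower with no overlap.

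Poison exons were then followed as percent spliced in (PSI), the TPM of transcripts that hold an exon in percent of these and of transcripts with an intron across it. A poison exon is held by NMD transcripts and by no coding transcript of the gene. Of 284 annotated cassette exons in 38 regulators, 71 in 27 genes were poison exons, and 270 of the 284, with 62 of the 71, were tested with limma. No member exon met both criteria for a call, a limma adjusted p under 0.05 and a PSI difference of over 5 points, against 0.0512% of 56607 exons, and 33 member exons and 5814 exons in all had an unadjusted p under 0.05. The groups did not overlap for 20 member exons that were higher and 32 that were lower, against 4.71% and 6.72% of all exons. On simulated data of this size the test missed all moderate changes and most large ones, so the absence of calls does not show that the exons were used alike. Of the 53 poison exons with at least 5 TPM over both forms, 51 differed by less than 5 points between the group means. The others were the 73-base exon of RBM39 and a 249-base exon of HNRNPA1. The latter, on 5.23 TPM, had 78.4%, 100% and 78.7% in shCtrl and 71.6%, 74.6% and 84.3% in shPCBP1, which overlapped (a difference of -8.86 points). That PSI is set only against transcripts that skip the whole stretch. The exon is also the longer form, by 38 bases, of another exon, with 1629 TPM over both forms. Against that shorter exon it took 0.238%, 0.167% and 0.224% in shCtrl. In shPCBP1 it took 0.271%, 0.312% and 0.325%, higher in all.

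The poison exons printed above for SRSF3, SRSF6 and SRSF7 had nearly the same PSI in all libraries. The SRSF6 exon had 62.6%, 61.7% and 60.2% in shCtrl and 61.8%, 60.4% and 61.0% in shPCBP1. The SRSF3 exon had 23.4%, 24.5% and 24.7% in shCtrl and 24.1%, 22.8% and 24.0% in shPCBP1, and the SRSF7 exon had 5.01%, 3.88% and 4.81% in shCtrl and 5.51%, 3.99% and 4.27% in shPCBP1. Each overlapped between groups, with differences of -0.46, -0.60 and 0.022 points. The SRSF4 exon had 5.50%, 6.65% and 5.53% in shCtrl and 5.94%, 4.74% and 5.53% in shPCBP1, again with overlap. The HNRNPLL exon averaged 1.86 points less in shPCBP1 and the TIA1 exon 1.09 points more, and both overlapped.

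Small shifts with no overlap were seen in 5 of the exons printed above, which are a selection, so that their number is not a rate. Among all 62 poison exons tested, 4 were higher and 7 lower with no overlap, against 4.71% and 6.72% of all exons. The TRA2B exon had 35.7%, 37.5% and 35.2% in shCtrl and 34.1%, 32.7% and 33.6% in shPCBP1. The TIAL1 exon had 30.9%, 28.5% and 32.3% in shCtrl and 26.1%, 27.8% and 26.7% in shPCBP1. The 73-base exon of RBM39 had 28.5%, 26.5% and 27.4% in shCtrl and 20.4%, 23.9% and 22.5% in shPCBP1. These 3 were lower in every shPCBP1 library, by 2.66, 3.74 and 5.17 points on average, with limma adjusted p of 0.72, 0.62 and 0.48. The 72-base exon of RBM39 went the other way, at 2.46%, 1.52% and 3.07% in shCtrl and 4.65%, 5.66% and 6.65% in shPCBP1 (limma adjusted p = 0.28). The SRSF11 exon had 7.54%, 6.93% and 7.36% in shCtrl and 9.05%, 12.7% and 9.40% in shPCBP1 (adjusted p = 0.45). In both, all shPCBP1 libraries were higher.

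**Figure D4:**
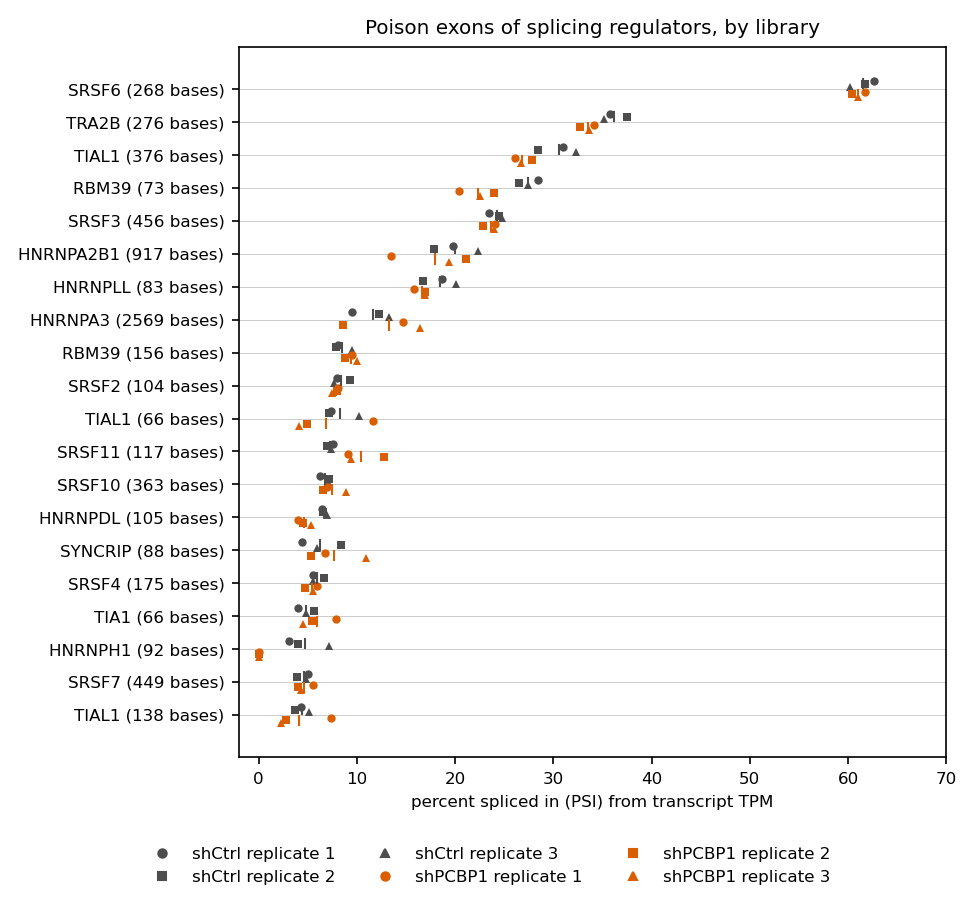
PSI in percent (x axis) of 20 poison exons with a mean of at least 20 TPM over both forms and 4% to 90% PSI in shCtrl (y axis, gene and exon length), 1 point per library and a vertical tick for each group mean. Not all of these exons hold the premature stop. The 917-base exon of HNRNPA2B1 is 1 that does not. SRSF6, SRSF3 and SRSF7 have points of both groups on top of each other, and the 73-base exon of RBM39 has its shPCBP1 points to the left.

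The lowest p of a member exon belonged to a 92-base poison exon of HNRNPH1, at 3.10%, 3.98% and 7.20% in shCtrl and listed at 0 in all shPCBP1 libraries (limma adjusted p = 0.057). It is the shorter form, by 47 bases, of a 139-base coding exon, which this PSI leaves out. Of the TPM of both forms, the longer took 99.5%, 99.3% and 98.9% in shCtrl and 100% in all shPCBP1 libraries. In 14 transcripts of HNRNPH1 the version in the files differs from that in the annotation, so the place of the 92-base exon is uncertain. Its adjusted p was 0.0087 with a pseudocount of 0.01 TPM, 0.015 with estimated counts, 0.047 with a higher count minimum and 0.035 without shCtrl replicate 3, and 0.48 with a replicate block, and its PSI difference of -4.76 points in TPM was short of the 5 points a call needed. A 170-base coding exon of PTBP3 had PSI of 95.3%, 93.4% and 93.2% in shCtrl, against 89.9%, 89.3% and 89.98% in shPCBP1, with no overlap (limma adjusted p = 0.28). A 58-base exon of HNRNPM was under 0.1% in all libraries, and a 73-base exon of PTBP1, on 0.870 TPM, was at 100% in all.

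Differences in coding form are given as values, since the forms below were picked after their values had been seen, and are among the largest of many. Annotated introns that some transcripts keep, and alternative splice sites, were followed as the percent of TPM in the longer form where both forms together had at least 20 TPM. A difference of at least 10 points with no overlap was found for 1 kept intron that was higher and 1 that was lower among 169 in 33 regulators, against 1.34% and 0.476% of 6722 kept introns in all genes. Among 41 alternative 5′ splice sites of regulators 1 was higher and 1 lower, against 0.301% and 0.151% of 1992 in all genes. None of 55 alternative 3′ splice sites in regulators reached this, against 0.192% (higher) and 0.384% (lower) of 3648.

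HNRNPL carried the higher kept intron, the 111-base stretch printed above. The longer form took 4.38%, 4.57% and 5.16% of TPM in shCtrl and 19.99%, 19.3% and 19.5% in shPCBP1, a gain of 14.9 points between narrow groups that lay far apart. The transcript HNRNPL-215, in which the stretch is coding, had 12.9, 9.42 and 13.7 TPM in shCtrl and 71.5, 67.2 and 65.9 in shPCBP1, or 3.17% and 16.7% of the TPM of the gene. All transcripts without the stretch together had 343, 343 and 330 TPM in shCtrl and 300.4, 297 and 288 in shPCBP1. The spliced form was lower in every shPCBP1 library, whereas the normalized count of the gene was higher. Leaving out any library gave between 14.7 and 15.1 points, and estimated counts in place of TPM gave 18.7. The values rest on reads that Salmon shared out between annotated transcripts, in which unspliced RNA and a finished mRNA with the intron cannot be told apart.

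HNRNPC carried the higher alternative 5′ splice site. The 39 bases separate the known proteins C1, the shorter, and C2, the longer. The longer form took 42.2%, 42.3% and 41.6% in shCtrl and 53.4%, 52.1% and 54.5% in shPCBP1, so that it was the minor form in each shCtrl library and the major form in each shPCBP1 library. The gain was 11.3 points, between 10.7 and 11.9 with any library left out, and 9.40 with estimated counts. HNRNPC-210, a transcript with the extension, had 245, 229.6 and 228 TPM in shCtrl and 303, 291 and 291 in shPCBP1. HNRNPC-215 was listed at 0 throughout shCtrl and had 4.95, 4.55 and 2.76 TPM in shPCBP1, and HNRNPC-223 had 4.35, 4.42 and 3.29 TPM in shCtrl and was listed at 0 in shPCBP1. HNRNPC has 9 pseudogenes by name.

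PTBP1 included its 78-base exon more often. This exon separates the longer PTBP1 isoform, PTB4, from the shorter PTB1. PSI was 62.0%, 63.3% and 63.1% in shCtrl and 72.1%, 70.5% and 69.3% in shPCBP1, 7.84 points higher with no overlap, and the test over all exons gave a limma adjusted p of 0.36. PTBP1-203, with the exon, had 129, 127 and 125 TPM in shCtrl and 179, 172 and 169.5 in shPCBP1. The transcripts without it had 84.8, 79.0 and 81.2 TPM in shCtrl and 74.4, 77.7 and 81.4 in shPCBP1, which overlapped, so that the higher TPM of the gene lay in the longer isoform.

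HNRNPD makes its known proteins by use of a pair of cassette exons. The 57-base exon had PSI of 61.4%, 59.6% and 64.1% in shCtrl, against 80.2%, 69.98% and 65.0% in shPCBP1, and the 147-base exon had 43.7%, 44.5% and 44.4% in shCtrl and 39.5%, 37.5% and 39.9% in shPCBP1. The first was higher and the second lower with no overlap, by 10.1 and 5.27 points (limma adjusted p = 0.53 and 0.54), and the first varied widely within shPCBP1. A 117-base stretch of HNRNPM, kept in its longer protein, took 66.1%, 64.2% and 64.9% in shCtrl and 69.2%, 70.9% and 72.6% in shPCBP1. A 45-base exon extension of HNRNPH3 took 50.4%, 47.7% and 47.7% in shCtrl and 45.4%, 42.4% and 41.6% in shPCBP1. The 36-base exon that makes the B1 form of HNRNPA2B1 had 42.9%, 41.2% and 44.3% in shCtrl and 46.2%, 45.8% and 44.2% in shPCBP1, which overlapped.

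The forms that were lower by at least 10 points were less steady. A 66-base exon extension of HNRNPA1 took 9.47%, 20.2% and 28.7% in shCtrl and 9.23%, 8.87% and 9.15% in shPCBP1. The shCtrl libraries were spread over a wide range, with shCtrl replicate 1 just above the shPCBP1 libraries, and without shCtrl replicate 3 the difference went from -10.4 to -5.74 points. A 2491-base kept intron of SRSF6 took 100%, 100% and 99.5% in shCtrl and 90.4%, 92.2% and 77.3% in shPCBP1. Without shPCBP1 replicate 3 its difference went from -13.2 to -8.54 points, and with estimated counts to -3.87.

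**Figure D5:**
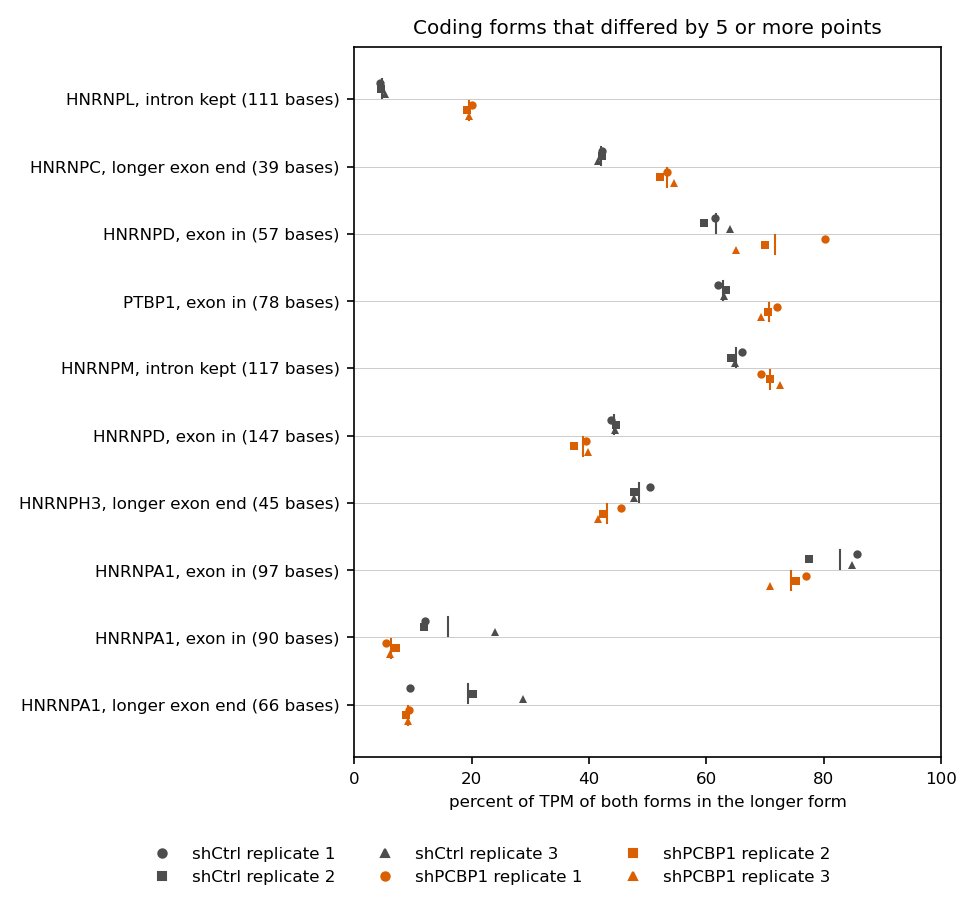
Percent of TPM in the longer form (x axis) for the 10 coding stretches of regulators that differed by at least 5 points with no overlap (y axis, gene, kind and length), 1 point per library and a vertical tick for each group mean. HNRNPL and HNRNPC show the widest gaps relative to the spread within groups, and the HNRNPA1 forms at the bottom have widely spread shCtrl points. These HNRNPA1 forms all lie within chr12:54282573-54282669 and share bases, so they are not separate events.

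Ordered by a DESeq2 fit per transcript, which is used here only as an order, the 10 leading transcripts of the regulators with at least 1 TPM were all protein_coding. They were HNRNPL-215, HNRNPAB-201, PTBP1-203, HNRNPD-201, HNRNPF-203, HNRNPC-215, HNRNPC-223, HNRNPC-210, MBNL1-204 and PTBP3-205. HNRNPAB-201, which lacks a 141-base exon, was listed at 0 throughout shCtrl and had 30.1, 25.1 and 34.8 TPM in shPCBP1. That exon had PSI of 81.0%, 81.6% and 79.8% in shCtrl, against 75.7%, 77.7% and 74.0% in shPCBP1, lower in all. HNRNPD-201 had 16.5, 18.0 and 16.7 TPM in shCtrl and 22.8, 22.4 and 24.8 in shPCBP1, and HNRNPF-203 had 27.4, 27.9 and 27.1 in shCtrl and 34.6, 33.0 and 35.8 in shPCBP1. MBNL1-204 had 41.4, 44.4 and 42.1 TPM in shCtrl and 50.9, 49.2 and 51.6 in shPCBP1, and PTBP3-205 had 47.5, 47.9 and 44.5 in shCtrl and 53.4, 52.9 and 54.6 in shPCBP1. Only HNRNPC-223 was lower in shPCBP1. None of the 10 overlapped between groups, which is likely for transcripts picked by a fit of the same groups.

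The pathway around the regulators was covered by 3 further lists. Of 16 NMD factors, which find and degrade the poison transcripts, 11 were higher and 1 lower, with a median log2 fold change of 0.19. All 16 had at least 2000 normalized counts on average, and of genes at that level 31.9% were higher and 15.6% lower. RNPS1, a protein of the exon junction complex, had the lowest adjusted p (0.33, DESeq2 adjusted p = 1.1e-14), followed by SMG5 (0.31, adjusted p = 7.0e-09) and the kinase SMG1 (0.19, adjusted p = 1.0e-07), whereas UPF3A was lower (-0.16, adjusted p = 0.0066). Of 11 genes for SR protein kinases, a phosphatase and the importer, 2 were higher and 3 lower, with a median of -0.0017, against 17.7% and 13.5% of all genes. At least 2000 normalized counts were reached by 9 of the 11, of which 2 were higher and 2 lower, against 31.9% and 15.6% at that level. The higher genes were the importer TNPO3 (0.24, adjusted p = 3.9e-09) and the kinase DYRK1A (0.23, adjusted p = 5.1e-07). The lower genes were the kinases CLK2 (-0.15, adjusted p = 0.017), PRPF4B (-0.11, adjusted p = 0.030) and SRPK3 (-0.62, adjusted p = 0.029), the last at a mean of only 170.3 normalized counts. Of 46 other splicing regulators 39 were tested, 20 were higher and 1 lower, with a median of 0.11, and 38 of the 39 had at least 2000 normalized counts, where the shares are again 31.9% and 15.6%. The lowest adjusted p belonged to the cold-inducible RBM3 (0.45, adjusted p = 4.3e-25), SON (0.25, adjusted p = 7.7e-11) and RBFOX2 (0.33, adjusted p = 2.3e-07), and SUGP2 was the lower gene (-0.20, adjusted p = 7.0e-07).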

How the data were processed

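PolyA RNA of K562 cells was read in 6 libraries. Salmon 1.10.2, named in the submitters' processing notes, assigned reads to transcripts, and the estimated counts deposited are not scaled to depth. The deposited TPM values were scaled by the authors' software to effective transcript length and to a fixed total per library. The transcript index is not given in the sources used here, and the labels name hg38. Of 252045 transcripts, 251612 matched GENCODE release 44 (GRCh38), which gave genes, biotypes and exons. Unmatched transcripts held at most 0.147% of counts and were left out. Versions differed for 14 transcripts of HNRNPH1 and 1 of SRSF2.

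Counts were summed per gene and rounded, and genes whose counts summed to 10 or more were tested with DESeq2 1.42.0 (Wald test, two-sided, group only, median-of-ratios size factors). Log2 ratios of TPM classes (pseudocount 0.1 TPM, mean count of at least 10 per class, or in either form for exons) were tested two-sided with limma 3.58.1 with a trend, and adjusted over all genes or exons. Junction reads were not used. Intervals of 95% come from the fits. The members, the gene lists and the rules for what is named were chosen with earlier results of these data known. All members that pass are named, with library values for the 12 with the lowest adjusted p, for SRSF1 to SRSF12 and for the 5 lowest p of each transcript test. MATR3 has more than 1 gene ID and only the first was used. Kept introns and alternative splice sites were added after seeing the data.

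Each test was tried on simulated data. The transcript-level DESeq2 test gave many false calls there, so none of its p-values is used and it only orders transcripts. Samples with the same replicate number did not deviate together (correlations 0.013, 0.0045 and -0.028 over 21567 genes). Alternatives used edgeR 4.0.16, other factors and filters, length offsets, pseudocounts, counts for TPM, a replicate block, and each library left out. Other software was R 4.3.3 and Python 3.11.15.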

Additional observations from a re-analysis of the deposited data

How the results depend on the processing

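Of the regulators, 22 were higher and 1 lower as reported, and leaving out 1 library gave 16 to 24 higher and 0 to 2 lower (0 without shCtrl replicate 1 or 3). The other alternatives gave 17 (edgeR quasi-likelihood) to 24 (length offsets) higher. The lower count was 3 with TMM factors and 0 with transcript length offsets, where SRSF11 turned to 0.053 on the log2 scale. The cause was not tested. Samples shared only a replicate number, and a fit with the replicate block gave 22 higher and 1 lower, with HNRNPA2B1 gained and SRSF9 lost. TMM factors moved the median over all genes from 0.0019 to -0.01 and the share of calls that were higher from 56.7% to 52.1%.

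No regulator passed in the NMD, retained-intron or cassette exon tests under any pseudocount, filter, unit, replicate block or library left out, although the 92-base exon of HNRNPH1 had limma adjusted p-values from 0.0087 to 0.48 and missed the call on its PSI difference where p was under the threshold. On simulated data the NMD, retained-intron and cassette exon tests recovered 0, 36 and 0 of 200 changes of 2-fold. Of 200 changes of 4-fold they recovered 147, 163 and 64. A count of 0 therefore does not show that shares or exon use were stable. Between group means, HNRNPC, HNRNPL and SRSF6 moved with estimated counts by more than the replicate spread, to 9.40, 18.7 and -3.87 points. The planned transcript-level alternatives were not run, since that test failed on simulated data. Precision is limited by reads shared between transcripts of 1 gene.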

Other observations

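The last 50 bases of intron before each poison exon were read on the strand of the gene. Over the 36 poison exons of splicing regulators with at least 5 TPM and 1% PSI, the median share of C was 16% (range 8% to 34%). Over 2315 such exons of all genes it was 20% (range 0% to 62%). Both sets include exons chosen without regard to whether the stop lies inside. The highest share among the regulators, 34%, lay before a 276-base exon of SRSF7 whose PSI was 1.29%, 1.20% and 1.19% in shCtrl and 1.91%, 1.59% and 1.69% in shPCBP1. These are descriptions of sequence and level, and no relation between them was tested.

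Levels per length differed widely within families. HNRNPA1 had 1803 TPM in shCtrl and HNRNPA0 29.5 TPM, PTBP1 had 249 TPM, PTBP3 54.4 and PTBP2 10.8, and SRSF3 had 414 TPM against 51.0 for SRSF8.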
